A study of Mus musculus with 12 samples.

Results

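Gnptab, Gnptg and Nagpa encode the enzymes that place the mannose 6-phosphate tag on lysosomal hydrolases, and they were 3 of the 84 panel genes on a mouse glycosylation PCR array. They were chosen by name for this shared role, and each was read from its own row of the deposited value table and the matching well of each sample file. The study measured messenger RNA by quantitative real-time PCR in dendritic cells, in 4 groups of 3 deposited samples. Between 50 and 100 ng of column-purified RNA was copied into cDNA and amplified with SYBR Green dye on plates of 96 wells. No genotype, strain or age was given for the mice.

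The first group was unstimulated DC2.4, a line of immortalized dendritic cells of the mouse. The second group was the same line treated with TGF-beta for 4 days, at 2.5 ng/ml in one protocol text and 10 ng/ml in another, so the dose was not settled. The third group was DC1, the cross-presenting class of dendritic cell, from mouse spleen, labelled XCR-1-positive. The fourth group was DC1 from MCA101 fibrosarcoma grown subcutaneously in mice, labelled CD103-positive. The protocol gave 1 sort for both tissues, of cells positive for CD103 or CD8, whereas the sample labels named a different surface marker for each tissue. Tissue and marker therefore cannot be told apart. The panel held 0 of 16 marker genes of dendritic cells, macrophages, fibroblasts and lymphocytes that were looked for, so the sorted populations could not be checked in these data. In such bulk RNA, fewer cells of a type and less RNA per cell cannot be told apart.

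Most soluble hydrolases reach the lysosome because they carry mannose 6-phosphate, which is bound by receptors in the trans-Golgi network. The tag is made in consecutive reactions: GlcNAc-1-phosphotransferase adds GlcNAc-1-phosphate to high-mannose glycans of the hydrolase in the cis-Golgi, and an uncovering enzyme then removes the GlcNAc. Gnptab encodes the precursor of the alpha and beta subunits of the phosphotransferase, which hold its catalytic site, and Gnptg encodes its gamma subunit, which aids phosphorylation of a subset of the hydrolases. Nagpa encodes the uncovering enzyme. Human mutations of the phosphotransferase genes cause mucolipidosis, in which hydrolases are secreted instead of being sorted to the lysosome.

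The promoters of the 3 genes are shown because genes of the lysosome often carry the palindrome CACGTG, the core of the element bound by the transcription factor TFEB and its relatives, near their start. Each window runs from 250 bases before to 50 bases after the annotated start, is printed 5' to 3' on the strand of the gene, and comes from RefSeq on build GRCm38.p6. The windows lie at chr10:88379018-88379317 on the plus strand for Gnptab, chr17:25240091-25240390 on the minus strand for Gnptg and chr16:5203963-5204262 on the minus strand for Nagpa. Capitals mark every CACGTG.
Gnptab: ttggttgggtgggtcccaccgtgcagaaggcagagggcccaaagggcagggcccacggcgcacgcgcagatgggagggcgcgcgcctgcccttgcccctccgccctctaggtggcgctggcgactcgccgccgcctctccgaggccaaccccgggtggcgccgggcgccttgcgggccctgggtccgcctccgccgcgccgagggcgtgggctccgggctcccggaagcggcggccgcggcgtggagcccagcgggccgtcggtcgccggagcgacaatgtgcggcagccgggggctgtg
Gnptg: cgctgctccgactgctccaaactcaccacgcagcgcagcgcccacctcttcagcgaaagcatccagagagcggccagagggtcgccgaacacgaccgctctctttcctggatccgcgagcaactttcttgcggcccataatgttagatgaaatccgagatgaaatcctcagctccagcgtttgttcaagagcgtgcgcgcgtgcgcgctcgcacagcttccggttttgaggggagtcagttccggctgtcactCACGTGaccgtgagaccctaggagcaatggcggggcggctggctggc
Nagpa: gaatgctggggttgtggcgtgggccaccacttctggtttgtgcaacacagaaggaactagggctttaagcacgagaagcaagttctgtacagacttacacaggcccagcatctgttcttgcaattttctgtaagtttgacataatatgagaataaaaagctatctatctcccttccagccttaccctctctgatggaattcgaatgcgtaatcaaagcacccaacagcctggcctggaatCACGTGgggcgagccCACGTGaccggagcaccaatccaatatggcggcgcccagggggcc

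CACGTG reads the same on both strands, and it occurred once in the Gnptg window, with its first letter at base 254. It occurred at bases 241 and 256 of the Nagpa window, and these letters were not in the Gnptab window. Of 32851 mouse promoter windows of this length, 7.15% held CACGTG. Counted by gene, the share was 8.09% of 27025 genes with a window. On the panel it was 7 of the 67 genes with a window (10.4%), Gnptg and Nagpa among them. The longer form TCACGTGA was in the Gnptg window and in 0.974% of all windows. The form GTCACGTG, or CACGTGAC on the other strand, was in the Gnptg and Nagpa windows and in 2.25% of all windows. Both longer forms contain CACGTG, so these shares overlap. The windows also differed in base composition, with a GC content of 78.3% and 41 CpG dinucleotides for Gnptab, 61% and 29 for Gnptg, and 51.3% and 10 for Nagpa. A second RefSeq start of Gnptg gave an overlapping window with the same site. These matches are descriptions of the sequence and no binding was measured.

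Each sample file listed the threshold cycle (Ct) of every well, the cycle at which fluorescence crosses a set line, so a lower Ct means more template. In the measured samples, 64 to 76 of the 84 panel genes had a Ct under 35, with a median Ct per sample from 22.8 to 30.8. In each group the values of the third file could be computed from the others: in 77 to 83 of 89 wells they matched, within 0.002 cycles, the average of both other files scaled by 1 factor. Gnptab, Gnptg and Nagpa followed this relation in all 4 groups. The tests therefore used 8 measured samples, 2 per group, and the third values are given as computed. The labels do not say whether samples of a group came from separate cultures or mice, so the p-values measure only the spread between these samples.

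All 3 genes were detected under a Ct of 35 in every sample. The Ct of Gnptab was 25.3 and 22.0 in unstimulated DC2.4, 27.0 and 21.7 in TGF-beta DC2.4, 26.5 and 29.3 in splenic DC1, and 29.6 and 28.2 in tumor DC1. The Ct of Gnptg was 27.4 and 23.3, 28.4 and 22.8, 27.6 and 30.8, and 30.0 and 29.3 in the same order of groups. The Ct of Nagpa was 25.9 and 22.7, 27.3 and 22.9, 27.0 and 30.7, and 29.3 and 28.1. In every group the sample with the higher Ct of one gene also had the higher Ct of the others. The mean Ct of the 5 reference wells moved with it, from 16.96 in the second unstimulated sample to 24.3 in the second splenic sample. Levels are therefore given relative to these wells, as the mean Ct of the 5 wells minus the Ct of the gene, in log2 units, where higher means more messenger RNA.

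Relative to the mean of the 5 reference wells, Gnptab messenger RNA stood lowest in the samples labelled tumor DC1. Its log2 relative level was -4.63 and -5.05 in unstimulated DC2.4, -4.95 and -4.73 in TGF-beta DC2.4, -4.14 and -4.94 in splenic DC1, and -5.71 and -5.76 in tumor DC1. Both tumor samples lay below the other 6 measured samples, whose 3 groups overlapped one another. Ranges did not overlap for 48.4% of the genes tested between tumor and splenic DC1, and for 80.3% between tumor DC1 and TGF-beta DC2.4. By group mean the order was splenic DC1 at -4.54 ± 0.56 (SD, n = 2), TGF-beta DC2.4 at -4.84 ± 0.16, unstimulated DC2.4 at -4.84 ± 0.30 and tumor DC1 at -5.73 ± 0.034. The first 3 groups in that order did not differ beyond their spread. The place of tumor DC1 depended on the reference. With Gapdh alone Gnptab was higher there than in splenic DC1 by 0.78 and than in TGF-beta DC2.4 by 1.89 (log2). With Actb, B2m, Gusb or Hsp90ab1 alone it was lower than in both. It also rests on the labels of the DC1 samples, against which the authors' deposited fold changes run the opposite way, as described below.

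Gnptg, the gamma subunit gene, varied within groups as much as between them. Its log2 relative level was -6.73 and -6.31 in unstimulated DC2.4, -6.34 and -5.85 in TGF-beta DC2.4, -5.24 and -6.47 in splenic DC1, and -6.12 and -6.87 in tumor DC1. Each pair of groups overlapped, the DC2.4 groups only just. By group mean the order was splenic DC1 at -5.85 ± 0.87 (SD, n = 2), TGF-beta DC2.4 at -6.10 ± 0.34, tumor DC1 at -6.49 ± 0.52 and unstimulated DC2.4 at -6.52 ± 0.30, and no neighbours in it differed beyond their spread.

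The level of Nagpa was nearly the same in all 4 groups by mean. It was -5.27 and -5.79 in unstimulated DC2.4, -5.18 and -5.91 in TGF-beta DC2.4, -4.65 and -6.37 in splenic DC1, and -5.39 and -5.62 in tumor DC1. The 2 splenic samples were the highest and the lowest of all 8. Group means ran from -5.54 ± 0.51 (SD, n = 2) in TGF-beta DC2.4 to -5.50 ± 0.16 in tumor DC1, with splenic DC1 at -5.51 ± 1.22 and unstimulated DC2.4 at -5.53 ± 0.37.

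**Figure D1:**
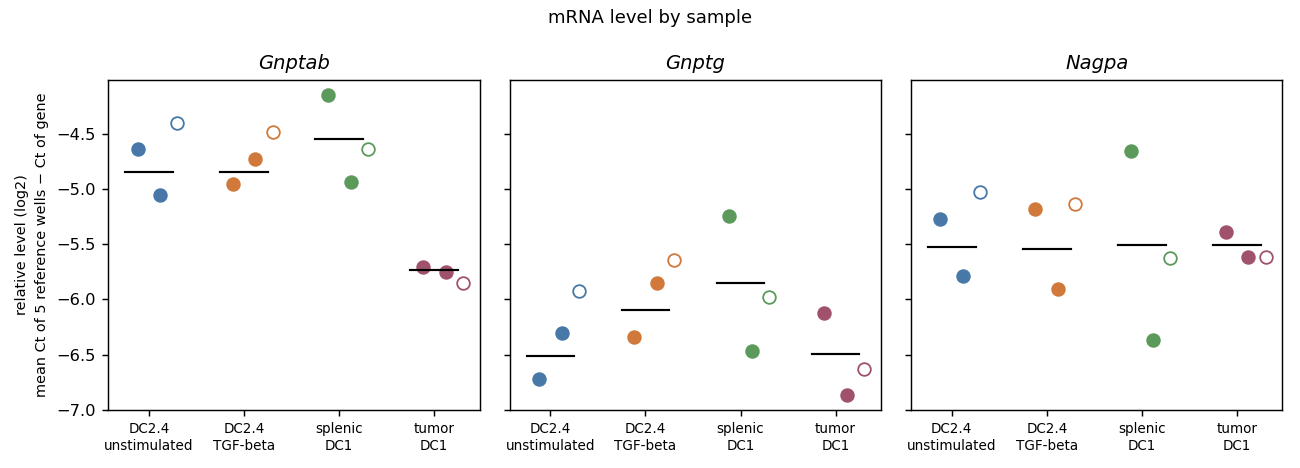
Log2 relative level (mean Ct of 5 reference wells minus Ct of the gene) of Gnptab, Gnptg and Nagpa in each sample of the 4 groups. Filled points are the 2 measured samples of a group, lines their mean, and open points the computed value of the third file. The tumor DC1 points of Gnptab, at -5.71 and -5.76, sit below the measured points of the other groups, and Gnptg and Nagpa overlap across groups. Between tumor and splenic DC1, 48.4% of the genes tested had ranges that did not overlap.

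TGF-beta treatment was compared with no stimulation in DC2.4 cells, the comparison that the treatment in the labels sets up. The level of Gnptab differed by 0.0030 ± 0.43 (log2 difference ± SE, TGF-beta minus unstimulated; limma adjusted p = 0.995), the smallest difference in size of the 69 genes tested. Nagpa differed by -0.017 ± 0.51 (limma adjusted p = 0.989), the second smallest. Gnptg stood 1.34-fold higher, at 0.42 ± 0.46 (limma adjusted p = 0.823). None of the 3 genes passed the threshold of an adjusted p of 0.05, and the percentage called over all 69 genes was 0 (0 genes by limma, with 11 at an unadjusted p under 0.05).

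The intervals of these differences were wide. The 95% interval ran from -1.23 to 1.23 for Gnptab, from -0.89 to 1.73 for Gnptg and from -1.48 to 1.44 for Nagpa, so more than a 2-fold difference in either direction lay within those of Gnptab and Nagpa. The median difference over the 69 genes was 0.29, and Gnptg lay above it and the other two below. The sample ranges of the treated and unstimulated cells overlapped for all 3 genes, whereas 39.1% of the genes tested had ranges that did not overlap.

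Tumor DC1 were compared with splenic DC1, the comparison the sorted samples set up. As labelled, Gnptab was 2.28-fold lower in tumor DC1, at -1.19 ± 0.64 (log2 difference ± SE, tumor minus splenic), which did not pass the test (limma adjusted p = 0.339, 95% interval -2.71 to 0.33, n = 2 per group). With the computed files counted as samples it passed at -1.20 (limma adjusted p = 0.0159), and over the alternatives the limma adjusted p ran from 0.000259 to 0.961. Gnptg differed by -0.64 ± 0.72 (limma adjusted p = 0.701) and Nagpa by 0.0062 ± 0.76 (limma adjusted p = 0.994), the smallest difference in size of the 62 genes tested. None of the 3 was called, against 8.06% of genes (5 of 62, all lower in tumor DC1). Against the median difference over these genes, -0.39, Gnptab and Gnptg lay lower and Nagpa higher.

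Gnptab was the member whose tumor and splenic ranges did not overlap, and 48.4% of the genes tested did not overlap either. The direction of every difference between the DC1 groups follows the labels of the sample files. In the authors' deposited table of fold changes the tumor over splenic columns ran the opposite way across the same 62 genes, with a Spearman correlation to these differences of -0.96 to -0.97. Genes are not independent replicates, and which of the sources carries the right direction was not settled. The TGF-beta columns of the authors' deposited table ran the same way as the files, with 0.87 to 0.96 over 69 genes.

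Between cell sources, the 4-group fit over 8 samples called no member with the 5 reference wells, and some single wells gave calls in both directions. Splenic DC1 stood above unstimulated DC2.4 by 0.30 ± 0.58 for Gnptab (log2 difference ± SE; limma adjusted p = 0.664), 0.66 ± 0.64 for Gnptg (0.489) and 0.017 ± 0.68 for Nagpa (0.980), with 11.5% of 61 genes called. Tumor DC1 against TGF-beta DC2.4 gave -0.89 ± 0.58 for Gnptab (limma adjusted p = 0.248), -0.40 ± 0.64 for Gnptg (0.626) and 0.041 ± 0.68 for Nagpa (0.953), with 34.4% of genes called. For Gnptab the same difference passed at -2.73 with Actb alone (limma adjusted p = 0.0105) and -1.51 with Gusb alone (limma adjusted p = 0.0139), and in the opposite direction at 1.89 with Gapdh alone (limma adjusted p = 0.0467). Gnptg passed at -2.24 with Actb and at 2.38 with Gapdh, and Nagpa at 2.82 with Gapdh. These ranges did not overlap for Gnptab, as for 80.3% of genes, and those of splenic DC1 and unstimulated DC2.4 overlapped for all 3 members, where 54.1% of genes did not overlap.

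Both DC1 groups together differed from both DC2.4 groups by -0.29 ± 0.41 for Gnptab (log2 difference ± SE; limma adjusted p = 0.569), 0.13 ± 0.45 for Gnptg (0.826) and 0.029 ± 0.48 for Nagpa (0.983). No member was called with the 5 wells, in a contrast that called 34.4% of genes, whereas Gapdh alone gave calls at 1.36, 1.78 and 1.68 in the same order and Actb alone a call at -1.74 for Gnptab. The tumor effect minus the TGF-beta effect, the test of whether both effects differ, was -1.19 ± 0.81 for Gnptab (limma adjusted p = 0.468), -1.06 ± 0.90 for Gnptg (0.618) and 0.024 ± 0.97 for Nagpa (0.986), where 16.4% of genes were called. These contrasts share samples with the comparisons above and are not independent of them.

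The balance between the members can be read within each sample as a difference of their wells, which needs no reference well. Because the primers of different genes need not amplify equally, the size of such a difference is not a ratio of transcripts, and only its change between groups is compared. Gnptab minus Gnptg, the catalytic precursor against the gamma subunit, was 2.09 and 1.25 in unstimulated DC2.4, 1.39 and 1.13 in TGF-beta DC2.4, 1.10 and 1.53 in splenic DC1, and 0.42 and 1.11 in tumor DC1 (log2 within the sample). The signal of Gnptab came earlier than that of Gnptg in all 8 samples. Tumor DC1 lay below both DC2.4 groups without overlap and only just overlapped splenic DC1, and the other groups overlapped one another. How many genes had such gaps relative to the Gnptg well was not counted. The highest value was the first unstimulated sample and the lowest the first tumor sample.

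No change of this subunit balance passed the test. It differed by -0.42 ± 0.54 between TGF-beta and unstimulated DC2.4 (log2 ± SE; limma adjusted p = 0.815; 0% of 68 genes called relative to the Gnptg well) and by -0.55 ± 0.57 between tumor and splenic DC1 (limma adjusted p = 0.483; 23% of 61 genes called). Without the first unstimulated sample the TGF-beta difference was 0.00075. Tumor DC1 against TGF-beta DC2.4 gave -0.49 ± 0.55 (limma adjusted p = 0.505; 33.3% called), and splenic DC1 against unstimulated DC2.4 gave -0.36 ± 0.55 (limma adjusted p = 0.676; 20% called). Both DC1 against both DC2.4 groups gave -0.43 ± 0.39 (limma adjusted p = 0.404; 41.7% called), and the difference of the tumor and TGF-beta effects was -0.13 ± 0.78 (limma adjusted p = 0.932; 18.3% called).

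The balance of Gnptab against Nagpa, the enzyme adding the tag against the enzyme uncovering it, was lowest in tumor DC1. Gnptab minus Nagpa was 0.63 and 0.73 in unstimulated DC2.4, 0.23 and 1.18 in TGF-beta DC2.4, 0.51 and 1.43 in splenic DC1, and -0.32 and -0.14 in tumor DC1 (log2 within the sample). Both tumor samples were below 0 and below the other 6, which were all above 0 and overlapped between their groups. The share of genes with such a gap relative to the Nagpa well was not counted. With the mean of the reference wells it was 48.4% for tumor against splenic DC1 and 80.3% for tumor DC1 against TGF-beta DC2.4. The group means were 0.97 in splenic and -0.23 in tumor DC1.

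The difference between these means was -1.20 ± 0.48 (log2 ± SE, tumor minus splenic), with a 95% interval from -2.27 to -0.12, an unadjusted limma p of 0.0323 and a limma adjusted p of 0.0937, which missed the threshold. Relative to the Nagpa well, 23% of genes were called in the same fit, and Gnptab ranked 24 of 61 genes by size. Its adjusted p was 0.0401 with limma's trend and robust options and 0.00877 with the computed files counted as samples, and over all alternatives it ran from 0.00877 to 0.399. Tumor DC1 against TGF-beta DC2.4 gave -0.93 ± 0.51 (limma adjusted p = 0.162; 45% of genes called), and TGF-beta against unstimulated DC2.4 gave 0.020 ± 0.54 (limma adjusted p = 0.983; 0% called). The difference of the tumor and TGF-beta effects was -1.22 ± 0.72 (limma adjusted p = 0.351; 15% called). Splenic DC1 against unstimulated DC2.4 gave 0.29 ± 0.51 (limma adjusted p = 0.655; 13.3% called) and both DC1 against both DC2.4 groups -0.32 ± 0.36 (limma adjusted p = 0.466; 55% called).

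Gnptg minus Nagpa, the gamma subunit against the uncovering enzyme, overlapped between most groups, and neither difference tested below passed. It was -1.46 and -0.52 in unstimulated DC2.4, -1.16 and 0.054 in TGF-beta DC2.4, -0.59 and -0.098 in splenic DC1, and -0.74 and -1.25 in tumor DC1 (log2 within the sample). The tumor values lay below the splenic ones without overlap and within those of unstimulated DC2.4. How many genes had ranges without overlap relative to the Nagpa well was not counted, here or for Gnptab minus Nagpa. With the mean of the reference wells, 48.4% of the genes tested did not overlap between tumor and splenic DC1. The gap is therefore a description and does not set this balance apart from other genes. The tumor minus splenic difference was -0.65 ± 0.46 (limma adjusted p = 0.336) and the TGF-beta difference 0.44 ± 0.69 (limma adjusted p = 0.891). Over the 8 samples the SD was 0.47 for Gnptab minus Gnptg, 0.54 for Gnptg minus Nagpa and 0.60 for Gnptab minus Nagpa. These values were close, and their order was not tested. Other panel genes were steadier still, as Gnptg ranked 9 of 56 genes for Gnptab and Gnptab 4 of 56 for Gnptg, from the smallest SD.

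**Figure D2:**
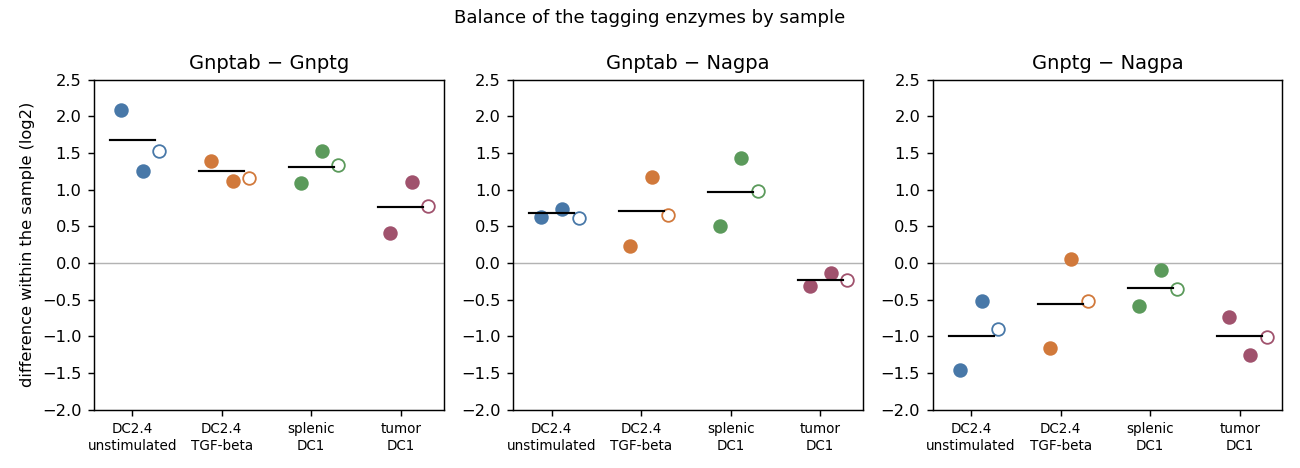
Within-sample log2 differences between the wells of Gnptab and Gnptg, Gnptab and Nagpa, and Gnptg and Nagpa, by group. Filled points are measured samples, lines their mean, open points the computed value of the third file, and the grey line marks 0. Gnptab minus Nagpa is lower in tumor DC1, at -0.32 and -0.14, than in the measured samples of the other groups. The share of genes with such a gap relative to the Nagpa well was not counted.

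The levels depended on the reference well, because the wells moved against each other between the DC1 groups. The Gapdh well, set against the mean of the other 4, differed by -2.46 in tumor relative to splenic DC1, Actb by 1.15, Gusb by 1.16, B2m by 0.33 and Hsp90ab1 by -0.18 (log2). Between the DC2.4 groups the largest such shift was that of B2m, at -0.64. The files name the first of these wells, and the other names follow the usual layout of the manufacturer. Gusb encodes beta-glucuronidase, a lysosomal hydrolase that itself carries the mannose 6-phosphate tag.

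The tumor minus splenic difference of Gnptab was -2.11 with Actb as the only reference, -1.46 with B2m, -1.05 with Hsp90ab1, -2.12 with Gusb and 0.78 with Gapdh (log2). It passed the test with Gusb alone (limma adjusted p = 0.000259), as did Gnptg at -1.57 (limma adjusted p = 0.00695), and neither passed with any other single well. Without Gusb, the mean of the other 4 wells gave -0.96 for Gnptab and -0.41 for Gnptg, a setting chosen after seeing the data. Against the mean of the whole panel, Gnptab differed by -0.55, Gnptg by 0.0038 and Nagpa by 0.65. Gnptab was the lowest and Nagpa the highest of the 3 differences under every reference, since the reference cancels in their balance.

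**Figure D3:**
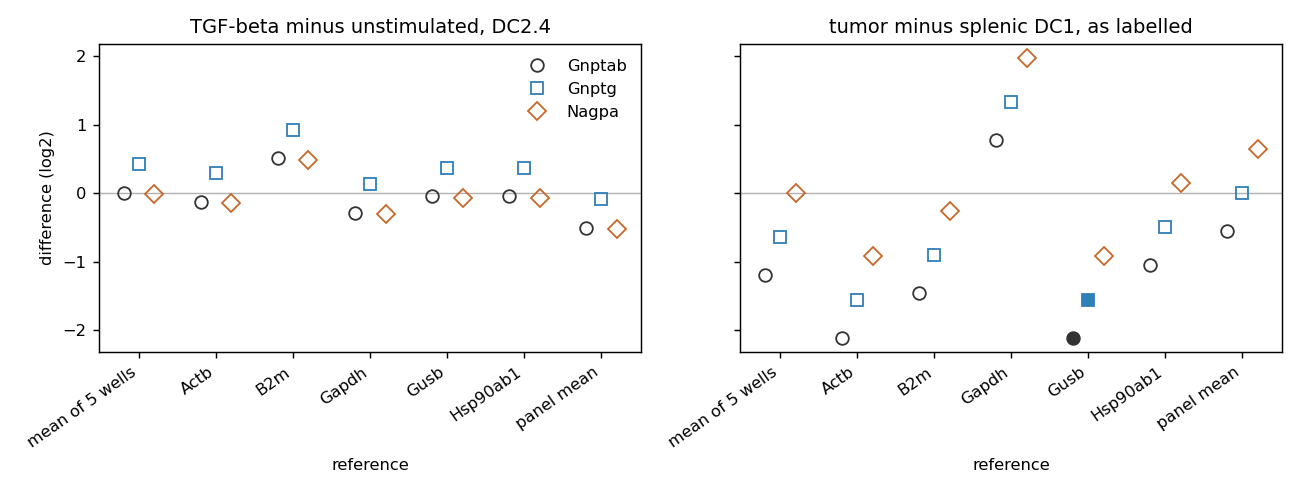
Log2 difference of Gnptab, Gnptg and Nagpa for TGF-beta minus unstimulated DC2.4 and tumor minus splenic DC1, with the mean of 5 reference wells, each well alone, or the mean of all panel genes as the reference. Filled symbols passed the limma test. In the DC1 comparison Gnptab runs from -2.12 with Gusb to 0.78 with Gapdh, and the order of the 3 genes is the same at each reference.

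Over the 8 samples, the panel genes that kept the steadiest within-sample difference to each member were found among 56 genes detected in all of them. For Gnptab these were Edem1, Edem3 and Aga, with an SD of the difference of 0.29, 0.31 and 0.40 (log2), against a median of 0.84 over the 56 genes. Edem1 and Edem3 encode proteins of the endoplasmic reticulum that direct misfolded glycoproteins to degradation, and Aga encodes the lysosomal enzyme aspartylglucosaminidase. Gnptg ranked 9 and Nagpa 11 among these 56 genes for Gnptab.

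For Gnptg the nearest were Edem3 (SD 0.31), Edem2 (0.36) and Galnt1 (0.45), with Gnptab at rank 4 and Nagpa at rank 10 and a median of 0.94. For Nagpa they were Galnt1 (0.33), Man1b1 (0.41) and Mogs (0.44), with Gnptg at rank 9 and Gnptab at rank 15 and a median of 0.82. Edem2 is a relative of Edem1, Galnt1 starts O-glycans, and Man1b1 and Mogs trim mannose and glucose from N-glycans in the secretory pathway. Each difference is taken within a sample and needs no reference well, but all differences to a member share the noise of that member's own well. The ranking is a description of 8 samples.

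No cargo of the tag passed the threshold with TGF-beta or between the DC1 groups. The 7 lysosomal hydrolases described here, from a textbook list, were Aga, Fuca1, Glb1, Hexa, Man2b1, Manba and Neu1, and all 7 were tested. With TGF-beta, 0 of 7 were called, 2 differences were above 0 and 5 below, and the median was -0.47 beside 0.29 over all genes tested, where 0% were called. This gap of -0.76 was -0.090 without the first TGF-beta sample. Neu1, the lysosomal sialidase, differed by 3.004 ± 0.87 (log2 ± SE; limma adjusted p = 0.1998), Fuca1, the lysosomal alpha-fucosidase, by -1.80 ± 0.69 (0.336), and Manba, the beta-mannosidase, by -0.54 ± 0.56 (0.823).

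Between tumor and splenic DC1, 0 of 7 hydrolases were called, 2 differences were above 0 and 5 below, and the median was -0.26 beside -0.39 over all genes tested, of which 8.06% were called. Neu1 differed by -2.57 ± 0.67 (log2 ± SE; limma adjusted p = 0.0625), Fuca1 by 1.77 ± 0.71 (0.213) and Hexa, a hexosaminidase gene, by -1.24 ± 0.73 (0.357). Neu1 and Fuca1 thus lay far apart in both comparisons and in opposite directions.

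Between the cell line and the sorted cells, 0 to 4 of the 7 hydrolases were called, by contrast. In splenic DC1 against unstimulated DC2.4, 0 of these 7 were called, where 11.5% of genes were. In tumor DC1 against TGF-beta DC2.4, Fuca1 (log2 difference 3.98, limma adjusted p = 0.000851) and Man2b1, the lysosomal alpha-mannosidase (3.34, limma adjusted p = 0.00146), were higher. Neu1 (-4.64, limma adjusted p = 0.000491) and the beta-galactosidase gene Glb1 (-1.90, limma adjusted p = 0.0466) were lower. That is 2 hydrolases higher and 2 lower of 7, where 34.4% of genes were called. The 3 genes other than Glb1 kept their sign in all 13 alternatives tried without leaving a sample out, but not always their call. Man2b1 was not called with Actb or B2m alone or with the series matrix, Fuca1 with B2m alone or the series matrix, and Neu1 with Gapdh alone. In the second tumor sample the series matrix holds the values of the next well, with the B2m well subtracted in place of Actb. A call lost with it, here or below, therefore does not rest on the same gene or reference in that sample. Glb1 was called in 5 of the 13 and stood at 0.88 with Gapdh alone. Glb1 was called in 1 of the 4 fits that left out a sample, and the others in all 4.

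With both DC1 groups set against both DC2.4 groups, Man2b1 at 2.67 and Fuca1 at 2.20 were higher and Neu1 at -1.85 and Glb1 at -1.59 were lower (log2; limma adjusted p from 0.00101 to 0.0205). That is 4 of 7 hydrolases where 34.4% of genes were called. These genes were named after their values were seen. All kept their sign when any 1 sample was left out, and Man2b1 and Fuca1 also kept their call in all 8 such fits, where Neu1 kept it in 5 and Glb1 in 4. Man2b1 and Fuca1 were not called with Actb or B2m alone or with the series matrix, and Neu1 was not with B2m, Hsp90ab1 or Gapdh alone, where it stood at -0.20. Glb1 was called in 9 of 13 alternatives and stood at 0.060 with Gapdh alone. Whether the hydrolases differed from the tagging enzymes in this was not tested. Of the 6 hydrolases with a promoter window, Glb1 alone held CACGTG.

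The enzymes that trim or convert the same high-mannose glycans, a second textbook list, were Man1a, Man1a2, Man1b1, Man1c1, Man2a1, Man2a2 and Mgat1. With TGF-beta, 0 of 7 were called, as were 0% of all genes, and the median was 0.28 beside 0.29 over all genes tested, with Man1c1 at -1.01 ± 0.59, Man2a1 at 0.78 ± 0.77 and Man2a2 at -0.55 ± 0.70 (log2 ± SE). Between tumor and splenic DC1, 0 of 7 were called, beside 8.06% of all genes, and the median was -0.50 beside -0.39. Man1c1, a Golgi alpha-mannosidase, differed by -2.81 ± 0.77 (limma adjusted p = 0.0657), Man2a1 by -1.36 ± 0.68 (0.305) and Man1a by -1.23 ± 0.69 (0.345).

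Across cell sources, Man1c1 fell by 2.57 in tumor DC1 against TGF-beta DC2.4 (log2; limma adjusted p = 0.0161), 1 of 7 called where 34.4% of all genes were. In both DC1 groups against both DC2.4 groups, Man1a2 at -1.68 (limma adjusted p = 0.0180) and Man1c1 at -1.67 (limma adjusted p = 0.0214) were lower and 0 were higher, 2 of 7 where 34.4% of all genes were called. With Gapdh as the only reference Man1c1 stood at 0.20 in the first of these contrasts, and in the second Man1a2 stood at -0.028 and Man1c1 at -0.023. These calls were also lost with B2m alone and with the series matrix. Man1c1 kept its call in 2 of 4 fits that left out a sample in the first contrast and in 4 of 8 in the second, and Man1a2 in 5 of 8. Of the 5 genes of this list with a promoter window, 0 held CACGTG.

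**Figure D4:**
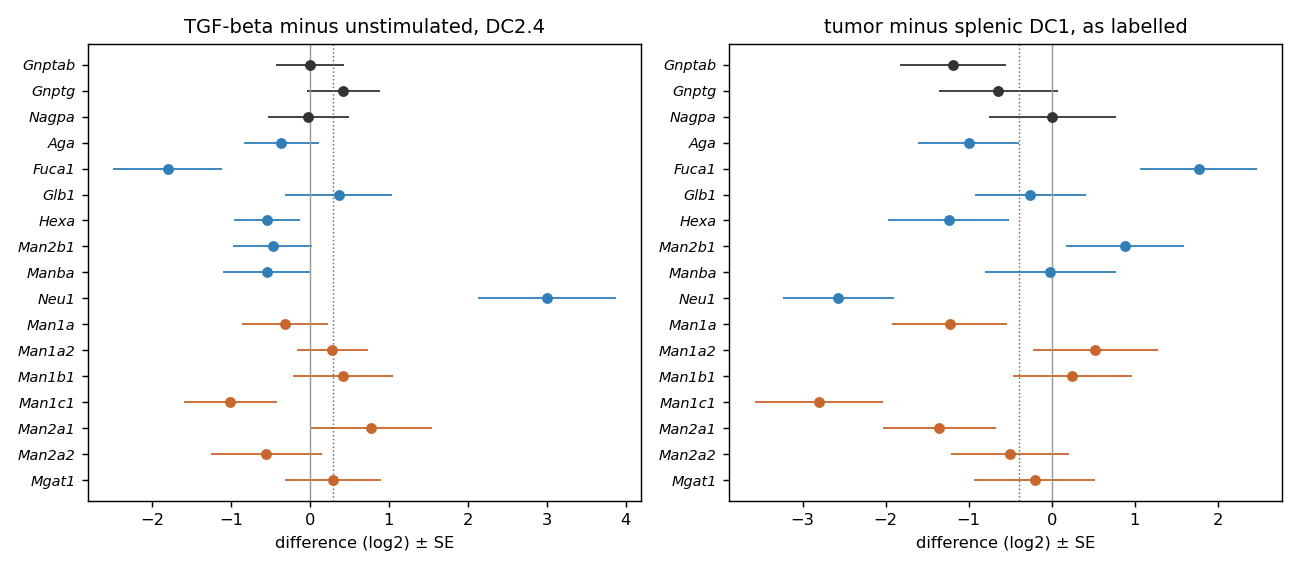
Log2 difference ± SE (limma) of the tagging enzymes (black), 7 lysosomal hydrolases (blue) and 7 high-mannose trimming enzymes (orange), for TGF-beta minus unstimulated DC2.4 and tumor minus splenic DC1. The dotted line is the median over all genes tested, at 0.29 and -0.39. Nagpa lies near 0 in both panels, and Neu1 lies at 3.004 in the first and -2.57 in the second.

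The authors' deposited table, which gives fold changes with no error, listed Gnptab at 0.759, 0.758 and 0.847, Gnptg at 1.28, 1.21 and 1.21, and Nagpa at 0.757, 0.788 and 0.763 in its 3 tumor over splenic columns. In the TGF-beta columns of the authors' deposited table Gnptab stood at 0.8, 0.5 and 0.025, Gnptg at 1.31, 0.82 and 1.34, and Nagpa at 1.06, 0.67 and 0.99. In the tumor columns the listed log2 fold of Gnptab minus that of Nagpa was 0.0035, -0.056 and 0.15, beside -1.20 from the sample files. The 0.025 of Gnptab stands beside folds of 0.802 and 1.25 for the first and second pair of samples in the files.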

How the data were processed

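Per the labels' protocols, total RNA was reverse transcribed and amplified on a commercial array. The sample files deposited by the authors hold the Ct of each well. The series matrix deposited by the authors holds Ct minus the Ct of Actb, a log2 scale on which higher means less RNA. The authors' deposited table gives each fold as a ratio to the control group, normalized to beta-actin per the file headers.

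Gene names were given to wells by their match, within 0.002 cycles, to the series matrix, and the 3 members had 1 well each. The third splenic and second tumor files stood 1 well early and were moved, which raised their correlation over panel genes with the second splenic file from 0.0054 to 0.952 and from -0.063 to 0.691. Genes whose deposited values broke the relation of the third file, or were whole or repeated numbers in the first splenic file, were left out, 11 in the TGF-beta and 17 in the tumor comparison. Ct over 35 and blanks were set to 35, and genes needed a Ct under 35 in 2 or more of the 4 samples.

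Differences were fitted with limma 3.58.1 in R 4.3.3 (two-sided, Benjamini-Hochberg over all genes tested, threshold 0.05). The TGF-beta and tumor comparisons were each fitted on their own 4 samples and the others on all 8. For the balance, 1 member's well replaced the reference wells. On simulated data with the spread of each comparison, a 4-fold change (log2 of 2) was called in 20% of changed genes for TGF-beta over 69 genes and in 14% for the tumor comparison over 62, and a log2 change of 1 in 0% of both.

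The members and lists were chosen with earlier results of these data known, and 1 item is not reported here. Named genes were the members, the 3 steadiest partners of each, the 3 largest differences of each list in both comparisons, and the reference wells. The choice of any other list gene named came after its values were seen. The alternatives varied the reference, the late Ct, the filter, the values, the variance model and the samples. Plots used Python 3.11.15, pandas 2.3.3 and matplotlib 3.10.9.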

Additional observations from a re-analysis of the deposited data

Results flagged for a closer look

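The tumor effect minus the TGF-beta effect differed from 0 for 2 of the 7 lysosomal hydrolases described here in the 4-group limma fit, where 16.4% of genes (10 of 61) were called. For Neu1 it was -5.57 ± 1.06 (log2 ± SE; limma adjusted p = 0.00214), from -2.57 in tumor against splenic DC1 and 3.004 in TGF-beta against unstimulated DC2.4, and it was called in all 8 fits that left out a sample, but not with Gapdh alone as the reference or with the series matrix. For Fuca1 it was 3.57 ± 0.99 (limma adjusted p = 0.0262), from 1.77 and -1.80, and it was called in 3 of those 8 fits, at 2.83 to 4.31, and not with Actb, B2m or Gusb alone or with the series matrix. Neither gene passed the threshold in either comparison alone. The sign of the tumor effect rests on the sample labels, and the authors' deposited table runs the other way. For each gene the tumor and TGF-beta effects were close in size and opposite in sign, at -2.57 and 3.004 for Neu1 and 1.77 and -1.80 for Fuca1. With the sign of the tumor effect turned, both effects would point the same way and these differences would be small. The flagged result therefore holds only if the labels are right, which was not settled.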

How the results depend on the processing

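The members' levels depended on the reference and the balance did not use it. Apart from leaving out samples, the alternatives turned the sign of 58 values and brought 20 past the threshold, 3 of these with the sign turned. All are log2 differences, and the cause was not tested beyond the reference itself.

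For TGF-beta against unstimulated DC2.4, Gnptab turned to -0.12 with Actb, -0.28 with Gapdh, -0.046 with Gusb, -0.0445 with Hsp90ab1, -0.50 with the panel mean, -0.12 with the series matrix and -0.024 with all 12 files. Nagpa turned to 0.49 with B2m and Gnptg to -0.083 with the panel mean. For tumor against splenic DC1, Gnptab was 0.78 with Gapdh, and passed the threshold at -2.12 with Gusb and -1.20 with all 12 files. Gnptg was 1.33 with Gapdh, 0.0038 with the panel mean and 1.33 with the series matrix, and passed at -1.57 with Gusb. Nagpa was -0.92 with Actb, -0.26 with B2m, -0.92 with Gusb and -0.27 with the series matrix. The series matrix keeps the second tumor file unmoved, so it holds the next well's values there, relative to the B2m well and not to Actb.

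For splenic DC1 against unstimulated DC2.4, Actb and the series matrix both gave -0.74 for Gnptab, -0.38 for Gnptg and -1.03 for Nagpa. Nagpa was also -0.17 with B2m, -0.23 with the panel mean, -0.048 without Gusb and -0.19 with all 12 files. For tumor DC1 against TGF-beta DC2.4, Gnptab passed at -2.73 with Actb, -1.51 with Gusb and -1.05 with all 12 files, and turned to 1.89 with Gapdh (past the threshold) and 0.0062 with the panel mean. Gnptg passed at -2.24 with Actb and turned to 2.38 with Gapdh (past the threshold), 0.24 with Hsp90ab1, 0.50 with the panel mean and 0.66 with the series matrix. Nagpa was -1.80 with Actb, -0.92 with B2m, -0.57 with Gusb, -1.15 with the series matrix and -0.13 with all 12 files, and passed at 2.82 with Gapdh.

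For DC1 against DC2.4, Gnptab passed at -1.74 with Actb and turned to 1.36 with Gapdh (past the threshold), 0.25 with Hsp90ab1 and 0.029 with the panel mean. Gnptg turned to -1.31 with Actb, -0.44 with B2m, -0.044 with Gusb and -0.085 with all 12 files, and passed at 1.78 with Gapdh. Nagpa turned to -1.41 with Actb, -0.54 with B2m, -0.15 with Gusb, -1.09 with the series matrix and -0.16 with all 12 files, and passed at 1.68 with Gapdh. For the difference of the tumor and TGF-beta effects, Gnptab turned to 1.06 with Gapdh and passed at -2.07 with Gusb. Gnptg turned to 1.19 with Gapdh, 0.086 with the panel mean and 1.04 with the series matrix. Nagpa turned to -0.77 with Actb, -0.75 with B2m, -0.85 with Gusb and -0.12 with the series matrix.

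Gnptab minus Nagpa passed for tumor against splenic DC1 at -1.21 with all 12 files and at -1.20 with trend and robust variance. With all 12 files it also passed at -0.92 for tumor DC1 against TGF-beta DC2.4 and at -1.23 for the difference of effects, as did Gnptg minus Nagpa at -0.65 for tumor against splenic DC1. The third files are computed from the others, so that setting counts the same measurements again.

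Leaving out each measured sample brought no value past the threshold. Where 1 sample was left in a group, it was assumed to vary like the others. The ranges that crossed 0 ran, for TGF-beta against unstimulated DC2.4, from -0.21 to 0.21 for Gnptab, -0.38 to 0.35 for Nagpa, -0.84 to 0.00075 for Gnptab minus Gnptg, -0.46 to 0.50 for Gnptab minus Nagpa and -0.17 to 1.04 for Gnptg minus Nagpa. For tumor against splenic DC1, Nagpa ran from -0.85 to 0.87. For splenic DC1 against unstimulated DC2.4 they were -0.095 to 0.70 for Gnptab, -0.84 to 0.88 for Nagpa, -0.78 to 0.059 for Gnptab minus Gnptg and -0.18 to 0.75 for Gnptab minus Nagpa. For tumor DC1 against TGF-beta DC2.4 they were -0.32 to 0.40 for Nagpa and -1.05 to 0.17 for Gnptg minus Nagpa. For DC1 against DC2.4 they were -0.17 to 0.44 for Gnptg, -0.40 to 0.46 for Nagpa and -0.20 to 0.41 for Gnptg minus Nagpa. For the difference of effects they were -0.84 to 0.88 for Nagpa and -0.55 to 0.29 for Gnptab minus Gnptg. The list median minus the panel median ran from -1.04 to -0.090 for hydrolases and -0.43 to 0.10 for trimming enzymes with TGF-beta, and from 0.094 to 0.32 and -0.11 to 0.0078 for tumor against splenic DC1. Gnptab for tumor against splenic DC1 ran from -1.59 to -0.79, and Gnptab minus Nagpa from -1.66 to -0.74.

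The labels number the samples 1 to 12 and give no pairs. In the authors' deposited table, most entries of the first and the third TGF-beta column follow from folds within the first and within the second pair of DC2.4 samples. With those pairs as a replicate block, an alternative chosen after seeing the data, the differences were unchanged by construction and no member or balance was called. The limma adjusted p was 0.994 for Gnptab, 0.499 for Gnptg and 0.967 for Nagpa, and 0.471 for Gnptab minus Gnptg, 0.959 for Gnptab minus Nagpa and 0.409 for Gnptg minus Nagpa. No such fit was made for the DC1 groups, whose samples no source pairs.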

Other observations

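The entries of Gnptab in the authors' deposited table departed from the relation that the other genes followed. In the tumor columns, the listed log2 fold of most genes equalled the mean Ct of tumor minus splenic DC1 plus a constant, -0.22 by median, and 2 or 3 of 62 genes departed by over 0.5. Gnptab departed by -1.23, -1.23 and -1.07, the second largest of the 62, whereas Gnptg and Nagpa departed by at most 0.067 in size. In the first TGF-beta column of the authors' deposited table, 65 of 69 genes equalled, within 0.01, the fold of the first pair of samples taken with all 5 reference wells. The third column equalled the mean of the rounded folds of both pairs in 64 of 69 genes. For Gnptab that mean was 1.025 and the authors' deposited table listed 0.025, the second largest departure of the 69.

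Among the 306 wells with a Ct under 35 in the 4 measured DC2.4 files, 2 ended in a pair of zeros at the fourth decimal. Both were Gnptg, at 27.36 in the first unstimulated and 28.41 in the first TGF-beta sample. Such endings were not particular to Gnptg. Among wells with a Ct under 35, they occurred in 4 of 80 in the first splenic sample and 2 of 72 in the second, all of other genes. Why the Gnptab entries depart, and whether the Gnptg endings mean anything, was not tested.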
